A study of Mus musculus with 8 samples.

Results

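Trp53inp1, Phlda3, Zmat3, Aen, Plk2 and Perp are p53 effector genes whose products act outside the cell cycle arrest genes and the BCL2 family. They were taken as a list of 6 gene symbols, current or former, and each was matched by its RefSeq transcript to the expression table, in which 15653 genes have a name. Each of the 6 genes had 1 probe set with values of its own. The arrays compare 3 lines of p53-null murine fetal fibroblasts, each a single clone, after 48 h in medium with 65 µM ZnCl2 and 5 µg/ml puromycin. Ind-8 cells (ASYM, 3 arrays) carry a wild-type mouse p53 cDNA under a modified human metallothionein promoter that zinc switches on, and divide asymmetrically under this condition. Con-3 cells (SYM, 3 arrays) lack the p53 cDNA and renew symmetrically; the sample labels call the line the congenic parent of Ind-8, whereas the study's methods call it a vector control. tI-3 cells (p53SYM, 2 arrays) derive from Ind-8, induce p53 with zinc, express IMPDH II constitutively and renew symmetrically, and only their medium also held G418. Each state is represented by 1 clone, so states and clones cannot be told apart.

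p53 is a transcription factor that stress stabilizes, and its targets reach well beyond arrest and the mitochondrial death pathway. Among the genes described here, TP53INP1 works in p53 phosphorylation and in autophagy, PHLDA3 holds AKT away from the membrane, ZMAT3 binds RNA, AEN is a nuclease, PLK2 is a centrosomal kinase, and PERP is a membrane protein of desmosomes. MDM2 and CCNG1 belong to the feedback arm of the same network. In fibroblasts, restored p53 is best known for the induction of p21 and for slower division.

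Values are RMA expression values on the log2 scale, so that a difference of 1 is a doubling. A gene was called in a comparison when limma, fitted to all 8 arrays, gave a Benjamini-Hochberg adjusted p under 0.05 over the 22523 probe sets tested. The median value of an array ran from 6.12 to 6.19. Con-3 replicate 3 stood apart from the other arrays, with 18S ribosomal RNA control values of 10.97, 9.53 and 11.38 against 4.55 to 7.67 on the rest. The hybridization controls were also high on that array, with a mean of 9.62, and on both tI-3 arrays, with 9.43 and 9.71, against 8.98 to 9.16 on the other 5. The level of these controls and the tI-3 line therefore cannot be told apart except through Con-3 replicate 3, and results are given with and without that array.

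The labels were checked on the transcripts they concern. The Trp53 probe set read 5.68, 5.87 and 5.80 in Ind-8, 5.21, 5.29 and 5.27 in Con-3, and 5.60 and 5.69 in tI-3. It was higher with respect to Con-3 in Ind-8 (log2 change 0.53 ± 0.0873 SE, adjusted p = 0.0019) and in tI-3 (0.39 ± 0.0976, adjusted p = 0.014; 0.34 and 0.11 without tI-3 replicate 2), and the lines with the cDNA did not differ beyond their spread (0.14 ± 0.0976, adjusted p = 0.28). Impdh2 was lower in Ind-8 than in Con-3 (log2 change -0.34 ± 0.0786, adjusted p = 0.011). The Impdh2 probe set was not higher in tI-3 than in Con-3 (-0.17 ± 0.0878, adjusted p = 0.18), so the transgene of tI-3 did not appear as a raised value there, and it was not called between Ind-8 and tI-3 (adjusted p = 0.16). Impdh1 was called in none of the 3 comparisons. The zinc-responsive metallothioneins Mt1 and Mt2 were not called between Ind-8 and either other line, while Mt2 was lower in tI-3 than in Con-3 (-0.39, adjusted p = 0.025), a call lost without Con-3 replicate 2 (-0.33, adjusted p = 0.087) and without tI-3 replicate 2 (-0.26, adjusted p = 0.22).

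The comparison of ASYM with SYM cells sets a line with induced p53 beside one without it. That of ASYM with p53SYM cells sets asymmetric beside symmetric renewal with p53 induced in both. That of p53SYM with SYM cells sets p53 beside its absence under symmetric renewal. Clone changes along with state in all 3. Both comparisons with p53SYM cells also differ in the IMPDH II transgene and in G418, which cannot be told apart from renewal or p53 there. Trp53inp1, Phlda3, Zmat3 and Aen were up-regulated in ASYM cells with respect to SYM cells, which makes 4 of 6 called, all of them higher, beside 21.9% of all probe sets called in either direction and 10.9% called higher. With respect to p53SYM cells the same 4 genes were up-regulated and Perp was down-regulated, 5 of 6 beside a background of 31.1%, of which 15.6% were higher and 15.5% lower in ASYM. Between the symmetrically renewing lines, Trp53inp1, Phlda3, Zmat3 and Perp were higher in p53SYM than in SYM, 4 of 6 beside 25.4%, or 10.2% in that direction. Perp lies near the dim end of the arrays, and its change here was 0.58, or 0.38 without tI-3 replicate 2. The median log2 change of the 6 genes was 1.09 in ASYM against SYM, where that of all probe sets was -0.06. It was 0.67 in ASYM against p53SYM and 0.55 in p53SYM against SYM, where all probe sets had medians of -0.06 and 0.04.

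**Figure D1:**
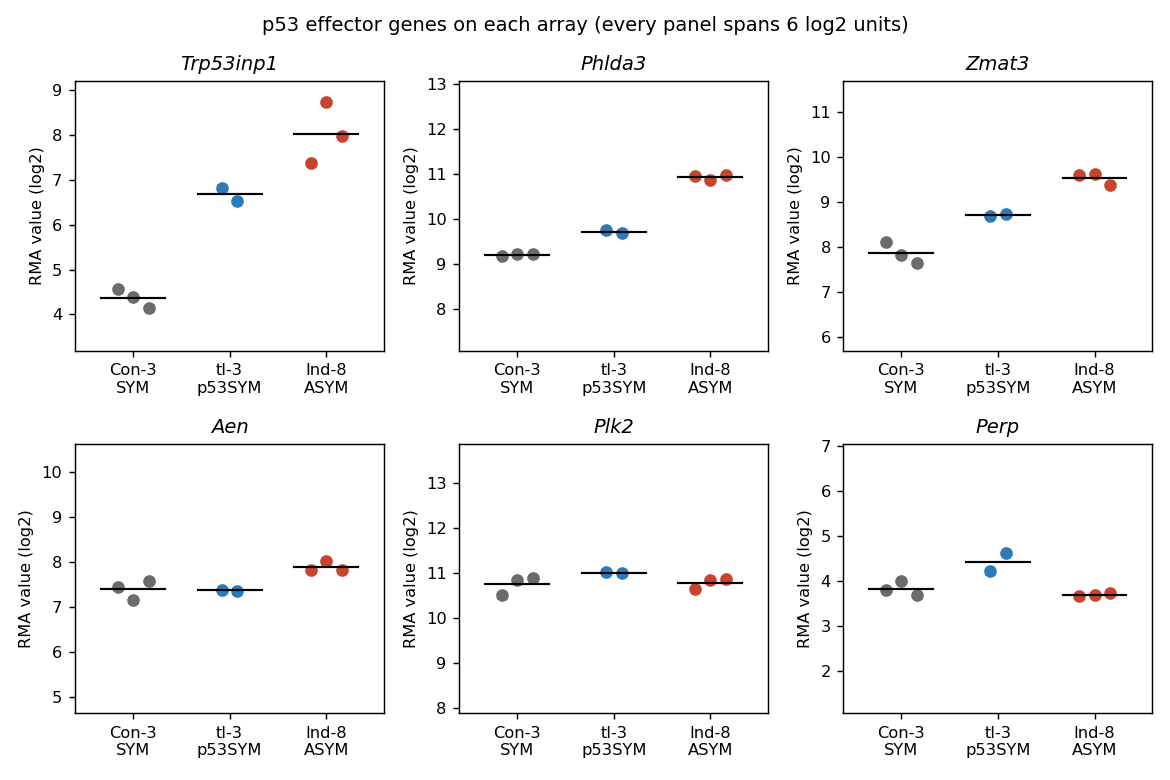
RMA values (log2) of each gene on each array, by line; dots are arrays, bars are line means, and every panel spans the same number of log2 units. Trp53inp1, Phlda3 and Zmat3 step up from SYM through p53SYM to ASYM without overlap, Aen is high on the ASYM arrays, Plk2 stays between 10.51 and 11.03, and Perp is highest on the p53SYM arrays. Of all probe sets, 38.0% did not overlap between Ind-8 and Con-3, 60.3% between Ind-8 and tI-3 and 51.6% between tI-3 and Con-3.

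Trp53inp1 (chromosome 4, 11156441 to 11174379, GRCm38.p6) encodes a stress protein that meets the kinase HIPK2 and p53 in nuclear bodies and binds ATG8 proteins during autophagy. Its values were 7.37, 8.73 and 7.96 in Ind-8, 4.57, 4.40 and 4.13 in Con-3, and 6.81 and 6.53 in tI-3. The lines did not overlap, which held for 38.0% of all probe sets between Ind-8 and Con-3, 60.3% between Ind-8 and tI-3 and 51.6% between tI-3 and Con-3. The Con-3 arrays lay close to the 25th percentile of all probe set means, 4.30. Trp53inp1 rose 12.6-fold in ASYM over SYM (log2 change 3.65 ± 0.274, adjusted p = 2.5e-05) and 4.94-fold in p53SYM over SYM (2.30 ± 0.306, adjusted p = 0.00053), and with Con-3 so near the dim end the size of these folds is less certain than their direction. It was also higher in ASYM than in p53SYM (1.35 ± 0.306, adjusted p = 0.0089), so its order of levels was Ind-8, tI-3, Con-3 with each step called. This last step was the least secure. Without tI-3 replicate 2 the change was 1.21 and no longer called. With a block for high or low hybridization controls it was 1.00 and not called (adjusted p = 0.34). In bulk cultures, fewer cells that make a transcript and less of it per cell cannot be told apart.

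Ind-8 replicates were further apart for Trp53inp1 than for the other effector genes, with an SD of 0.68 against 0.043 to 0.14. The array with the highest Trp53inp1, replicate 2, also had the highest Mdm2 (11.19, against 10.79 and 10.71) and the highest Ccng1 (12.42, against 11.79 and 12.07). Zmat3 and Aen were also highest on that array, and Phlda3 was lowest. The closest relative, Trp53inp2, which also acts in autophagy, rose in ASYM over SYM by 1.24 ± 0.127 (adjusted p = 0.00015) and in p53SYM over SYM by 0.80 ± 0.142 (adjusted p = 0.0025). Beside 10.9% of all probe sets called higher in ASYM than in SYM, 4 of the 7 genes found from the list of TP53INP partners and ATG8 proteins were higher and 0 lower, with a median of 0.49. They were Trp53inp2, Gabarap (1.11 ± 0.104), Gabarapl1 (0.68 ± 0.119) and Map1lc3b (0.49 ± 0.149, adjusted p = 0.04). The Map1lc3b arrays of Ind-8 and Con-3 overlapped, and its call was lost without Ind-8 replicate 1 or 2 or Con-3 replicate 2 or 3, with changes of 0.38 to 0.48 and an adjusted p of up to 0.15. Hipk2, with -0.30 ± 0.113 and an adjusted p of 0.085, was not called.

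Phlda3 (chromosome 1, 135766085 to 135769134) encodes a small protein made almost wholly of a pleckstrin homology domain, which competes with AKT for membrane lipids and so restrains AKT. Its values were tight, 10.96, 10.87 and 10.97 in Ind-8, 9.19, 9.22 and 9.21 in Con-3, and 9.76 and 9.68 in tI-3. Each line occupied a narrow band, and the p53SYM arrays sat nearer to the SYM arrays than to the ASYM arrays. Phlda3 was higher in ASYM than in SYM by 1.73 ± 0.081 (3.32-fold, adjusted p = 8.8e-07), and in ASYM with respect to p53SYM by 1.21 ± 0.0906 (adjusted p = 2.4e-05). The step from SYM to p53SYM was 0.52 ± 0.0906 (adjusted p = 0.0024), and all 3 steps were called with each array left out in turn.

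The relatives of Phlda3 and the AKT genes were read beside it. Of 7 genes found from the list of PHLDA relatives and AKT genes, limma called 0 in ASYM against SYM, beside 21.9% of all probe sets. At an unadjusted p under 0.05 there were 0 as well, and their median was -0.10. Phlda1 gave 0.41 ± 0.216 (adjusted p = 0.21) and Phlda2 gave -0.27 ± 0.14 (adjusted p = 0.21). In ASYM against p53SYM 4 of the 7 had an unadjusted p under 0.05, and Phlda2 was called, being lower in ASYM (-0.67 ± 0.157, adjusted p = 0.01); without tI-3 replicate 2 this was -0.36 with an adjusted p of 0.095. The brightest probe set stood for each gene, and a dimmer one of Pdpk1, the kinase that activates AKT, was higher in ASYM than in p53SYM (1.04, adjusted p = 0.005) and lower in p53SYM than in SYM (-1.07, adjusted p = 0.0039). Akt1, the kinase that PHLDA3 opposes, gave -0.21 ± 0.114 (adjusted p = 0.22) in ASYM against SYM.

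Promoter windows, from 250 bases before to 50 bases after the start site, were taken from RefSeq (GRCm38.p6) and matched 3 of the 6 genes, Phlda3, Aen and Plk2. They are shown because these genes differed in ASYM against SYM, with a large rise of Phlda3, a small one of Aen and no call for Plk2. Capitals mark the 4-letter centres of p53 response elements, which are CATG and also CTAG or, in other elements, CAAG or its reverse complement CTTG, on either strand, and also a whole p53 decamer, the 10-letter unit that occurs as a pair in such elements; each decamer contains a centre. The windows lie at chr1:135765835-135766134 for Phlda3, chr7:78895677-78895976 for Aen and chr13:110394794-110395093 for Plk2, all on the + strand.
Phlda3: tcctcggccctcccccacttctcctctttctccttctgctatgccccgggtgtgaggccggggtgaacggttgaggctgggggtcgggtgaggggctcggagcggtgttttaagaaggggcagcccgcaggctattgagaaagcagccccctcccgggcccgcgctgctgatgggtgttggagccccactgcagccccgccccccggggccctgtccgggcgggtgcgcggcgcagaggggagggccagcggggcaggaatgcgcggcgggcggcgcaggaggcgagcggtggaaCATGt
Aen: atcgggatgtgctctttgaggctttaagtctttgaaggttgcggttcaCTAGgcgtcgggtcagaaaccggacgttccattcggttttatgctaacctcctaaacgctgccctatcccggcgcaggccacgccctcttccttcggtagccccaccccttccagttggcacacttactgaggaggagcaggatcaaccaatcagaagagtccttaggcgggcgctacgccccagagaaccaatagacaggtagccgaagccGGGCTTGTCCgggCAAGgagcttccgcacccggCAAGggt
Plk2: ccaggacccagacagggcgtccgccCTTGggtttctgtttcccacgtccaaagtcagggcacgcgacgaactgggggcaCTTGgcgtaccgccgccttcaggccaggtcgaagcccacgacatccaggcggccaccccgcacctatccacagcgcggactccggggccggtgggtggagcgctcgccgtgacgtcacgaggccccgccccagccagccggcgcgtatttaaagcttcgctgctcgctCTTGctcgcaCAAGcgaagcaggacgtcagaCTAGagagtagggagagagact
The Aen window held 1 decamer, GGGCTTGTCC, beginning at base 261, within the transcribed end of the window, and 4 centres in all. A second Aen window, for a start site further downstream at chr7:78895808-78896107, held the same decamer at base 130. The Phlda3 window held 1 centre and the Plk2 window 5, and neither held a decamer. Over all 32851 promoter windows of the same length, 8.36% held a decamer and 98% at least 1 centre, with 70.8% holding CAAG, 61.1% holding CATG, 59.2% holding CTAG and 70.4% holding CTTG. A match is a description of letters only, and letters missing from a window say nothing of p53 binding elsewhere in the gene.

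Zmat3 (chromosome 3, 32334792 to 32365665), also called Wig1, encodes a zinc finger protein that binds double-stranded and AU-rich RNA and acts on splicing and mRNA stability. It read 9.60, 9.62 and 9.38 in Ind-8, 8.12, 7.82 and 7.65 in Con-3, and 8.69 and 8.73 in tI-3. The tI-3 arrays lay about midway between the other lines, with no overlap on either side. Zmat3 rose by 1.67 ± 0.125 in ASYM over SYM (3.19-fold, adjusted p = 2.5e-05), by 0.85 ± 0.14 in p53SYM over SYM (adjusted p = 0.0017), and was higher in ASYM than in p53SYM by 0.82 ± 0.14 (adjusted p = 0.0024). Without Con-3 replicate 3, the lowest of its line, the change in ASYM over SYM was 1.57 and that in p53SYM over SYM 0.74. With a block for high or low hybridization controls the step from p53SYM to ASYM was 0.50 and not called (adjusted p = 0.22).

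Among the other ZMAT genes and the AU-rich element binding proteins, 1 of 10 was higher and 2 were lower in ASYM than in SYM, with a median of -0.07. Over all probe sets, 21.9% were called in this comparison. Zmat2, a splicing factor, fell by 0.43 on the log2 scale (adjusted p = 0.0053), against the direction of Zmat3. Zmat1 (0.20 ± 0.161), Zmat4 (0.04 ± 0.0875) and Zmat5 (-0.17 ± 0.0974) were not called. Zfp36, which marks AU-rich mRNAs for decay, rose by 0.82 ± 0.129 (adjusted p = 0.0016), while its relative Zfp36l1 was barely called (-0.78, adjusted p = 0.049). Zfp36l1 ran from -0.999 to -0.43 with an array left out and lost its call without any of 6 arrays, all but Ind-8 replicates 2 and 3 (adjusted p up to 0.15).

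Aen (chromosome 7, 78895927 to 78911209) encodes the apoptosis enhancing nuclease, an exonuclease of the nucleus and nucleolus. Its values were 7.82, 8.03 and 7.84 in Ind-8, 7.46, 7.16 and 7.58 in Con-3, and 7.38 and 7.37 in tI-3. All Ind-8 arrays were above all others, and the tI-3 arrays fell inside the range of the Con-3 arrays. The order was thus Ind-8 above a pair of lines that did not differ beyond their spread, with 0.50 ± 0.116 (1.41-fold, adjusted p = 0.012) for ASYM against SYM, 0.52 ± 0.13 (adjusted p = 0.014) for ASYM against p53SYM, and -0.02 ± 0.13 (adjusted p = 0.92) for p53SYM against SYM. These were the smallest of the called rises in ASYM, and they rest on few arrays. Without Ind-8 replicate 2 the first was 0.43 with an adjusted p of 0.05, just over the threshold. The second lost its call without tI-3 replicate 1 (0.53), without tI-3 replicate 2 (0.51) and after the arrays were quantile-normalized again (0.34, adjusted p = 0.089). That call was also lost with a block for high or low hybridization controls (0.78, adjusted p = 0.069).

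The relative of Aen with the clearest change was Isg20, an interferon-stimulated exonuclease, and its order of lines was different. Isg20 rose by 0.98 ± 0.0847 in ASYM over SYM (adjusted p = 6e-05) and by 1.36 ± 0.0946 in p53SYM over SYM (adjusted p = 1.3e-05), so that it was lower in ASYM than in p53SYM (-0.38 ± 0.0946, adjusted p = 0.014), a call lost without tI-3 replicate 1 (-0.36, adjusted p = 0.064) or 2 (-0.39, adjusted p = 0.068). Over the 5 nucleases of the list, which includes Isg20l2 (0.16 ± 0.132), 1 was higher, 1 (Eri1, -0.51 ± 0.103) was lower and 3 were not called in ASYM against SYM, with a median of -0.07. Over all probe sets, 21.9% were called there.

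Plk2 (chromosome 13, 110395044 to 110400844) encodes a Polo-like kinase that p53 can induce and that works in centriole duplication. It was bright on every array, with 10.64, 10.86 and 10.86 in Ind-8, 10.51, 10.86 and 10.89 in Con-3, and 11.03 and 10.997 in tI-3. The Ind-8 and Con-3 arrays overlapped, and the tI-3 arrays were above both by a margin that was not called. The change was 0.03 ± 0.117 (adjusted p = 0.87) in ASYM against SYM, -0.22 ± 0.131 (adjusted p = 0.21) in ASYM against p53SYM and 0.26 ± 0.131 (adjusted p = 0.18) in p53SYM against SYM. No neighbours in its order of levels, tI-3, Ind-8, Con-3, were called different. Without Con-3 replicate 1, its lowest array, the change in ASYM against SYM had the other sign, -0.09.

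The other Polo-like kinases had patterns of their own. Plk1 and Plk4, which drive mitosis and centriole assembly, were lower in ASYM than in SYM (-0.50 ± 0.12, adjusted p = 0.014, and -0.62 ± 0.0999, adjusted p = 0.0018), though Plk1 lost its call without Con-3 replicate 3 (-0.45, adjusted p = 0.053). They were not called between p53SYM and SYM (0.02 ± 0.134 and 0.11 ± 0.112). Plk3, a stress kinase close to Plk2, was not called in ASYM against SYM (0.08 ± 0.143, adjusted p = 0.76) but was lower in p53SYM than in SYM (-1.08 ± 0.16, adjusted p = 0.00097). In all, Plk2 had 4 relatives of which 2 were called lower, and Plk5 (-0.07 ± 0.136) was not called, in ASYM against SYM. In ASYM against p53SYM all 4 were called, Plk3 higher (1.15) and Plk1 (-0.52), Plk4 (-0.73) and Plk5 (-0.47) lower. Over all probe sets, 21.9% were called in ASYM against SYM and 31.1% in ASYM against p53SYM. Plk5 lost that call with any of 5 arrays left out, and Plk1 without either tI-3 array.

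**Figure D2:**
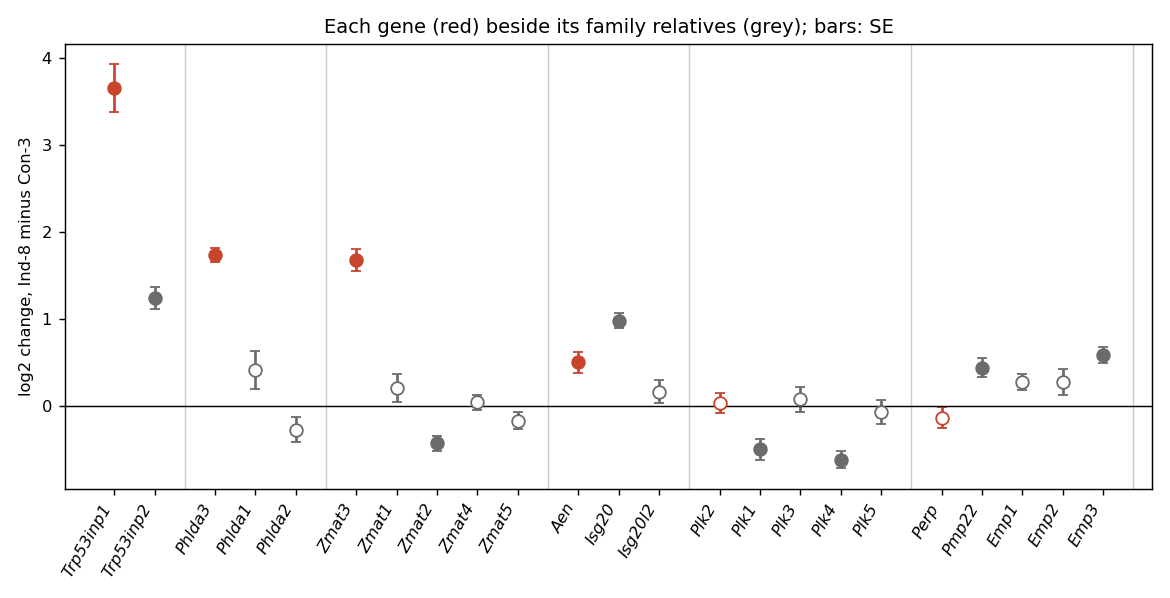
Log2 change in Ind-8 minus Con-3, with its SE, for each effector gene (red) and its family relatives (grey); filled dots were called by limma and open dots were not. Trp53inp1 and Trp53inp2 are both called higher, Phlda3 and Zmat3 stand above all of their relatives, Isg20 lies above Aen, and Plk1 and Plk4 lie below 0 while Plk2 was not called.

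Perp (chromosome 10, 18845071 to 18857073) encodes a membrane protein of the PMP22 family that epithelia need for desmosomes and that p53 and p63 can induce. Its values were the dimmest of the list, 3.67, 3.68 and 3.75 in Ind-8, 3.81, 4.003 and 3.69 in Con-3, and 4.21 and 4.62 in tI-3. On the Ind-8 and Con-3 arrays, which overlapped, 8.38% to 18.6% of all probe sets read lower than Perp, and on the tI-3 arrays 21.2% and 28.8% did. Perp was not called in ASYM against SYM (-0.13 ± 0.121, adjusted p = 0.49). It was called higher in p53SYM than in SYM (0.58 ± 0.136, adjusted p = 0.01) and lower in ASYM than in p53SYM (-0.72 ± 0.136, adjusted p = 0.004). With a block for high or low hybridization controls the latter change was -0.94 and not called (adjusted p = 0.053). The order of Perp levels was tI-3 above Con-3 and Ind-8, which did not differ beyond their spread.

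The dim end of the tI-3 arrays was itself raised. The 25th percentile of an array was 4.39 and 4.43 in tI-3, 4.38 on Con-3 replicate 3 and 4.19 to 4.27 on the other arrays, and the SD over probe sets was lowest in tI-3 (2.29 and 2.25, against 2.32 to 2.40). Of the probe sets under the 25th percentile of means, 4.24% were called higher in p53SYM than in SYM, with a median change of 0.07. Above that percentile 12.2% were, with a median of 0.0062. In ASYM against p53SYM the median was -0.14 under the percentile and 0.0036 above it. With the arrays quantile-normalized again, Perp was 0.47 higher in p53SYM than in SYM (adjusted p = 0.033) and 0.55 lower in ASYM than in p53SYM (log2 change -0.55, adjusted p = 0.016). tI-3 replicate 2 decided the call in p53SYM against SYM, which without it was 0.38 with an adjusted p of 0.12.

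**Figure D3:**
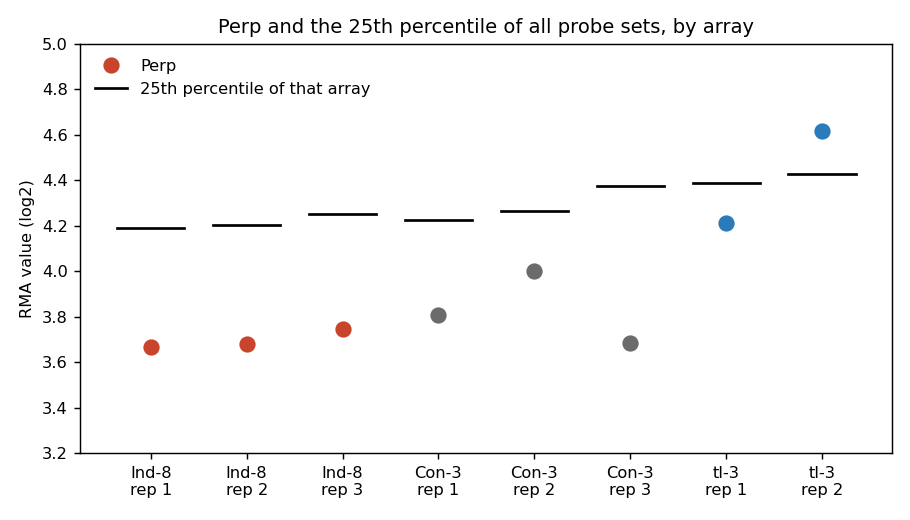
Perp values (log2; dots, colored by line) and the 25th percentile of all probe sets (bars) on each array. Perp lies under the 25th percentile on 7 arrays and above it on tI-3 replicate 2, and the percentile is highest on the tI-3 arrays.

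The relatives and partners of Perp were also read. Pmp22 and Emp3 rose in ASYM over SYM (0.44 ± 0.106, adjusted p = 0.013, and 0.58 ± 0.0901, adjusted p = 0.0014), Pmp22 losing its call without Ind-8 replicate 3 (0.36, adjusted p = 0.051), while Emp1 (0.28 ± 0.0893, adjusted p = 0.05) and Emp2 (0.27 ± 0.15, adjusted p = 0.24) were not called. Emp2, like Perp, was brightest in tI-3, being higher in p53SYM than in SYM (0.82 ± 0.167, adjusted p = 0.0053) and lower in ASYM than in p53SYM (-0.55 ± 0.167, adjusted p = 0.032); this last call was lost without Ind-8 replicate 2 or 3 or either tI-3 array (adjusted p up to 0.13). The desmosome gene Pkp2 was lower in p53SYM than in SYM (-1.49 ± 0.177). Over the 10 genes of this list, 2 were higher and 1 lower in ASYM than in SYM, with a median of 0.26, beside 21.9% of all probe sets called.

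How much of the rise from SYM to ASYM remained in p53SYM cells was expressed as the share of the Ind-8 change kept in tI-3. It is the tI-3 mean minus the Con-3 mean, divided by the Ind-8 mean minus the Con-3 mean, on the log2 scale. Because tI-3 differs from Ind-8 in renewal, clone, IMPDH II transgene and G418, the share cannot be assigned to any of them. It was computed for the 4 genes called in ASYM against SYM, and Plk2 and Perp have none because their denominators were not set apart from 0. Trp53inp1 kept 63.1% (95% Fieller interval 46.4% to 80.5%), Zmat3 50.8% (34.0% to 67.7%) and Phlda3 29.8% (19.0% to 40.3%). For these 3 genes the whole interval lay between 0 and 100%, with p53SYM between the other states. Aen kept -4.38%, with a wide interval of -95.6% to 47.3%. The intervals of Trp53inp1 and Phlda3 did not overlap, while Zmat3 overlapped both; differences between the shares of 2 genes were not tested.

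The scale of the share matters for its size. On linear values, with each log2 value raised as a power of 2 before averaging, Trp53inp1 kept 31.5%, Zmat3 36.3%, Phlda3 18.6% and Aen -5.39%. Zmat3 then came above Trp53inp1, so the order of these genes depends on the scale. Without Con-3 replicate 3 the log2 shares were 61.9% for Trp53inp1, 47.5% for Zmat3, 30.0% for Phlda3 and 11.3% for Aen, and with a block for high or low hybridization controls they were 71.7%, 68.0%, 29.5% and -33.7%. The Aen share was also -36.5% without Con-3 replicate 2 and 23.2% after quantile normalization, so its size is not settled. With values under the 25th percentile raised to it, the Trp53inp1 share was 62.5%.

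**Figure D4:**
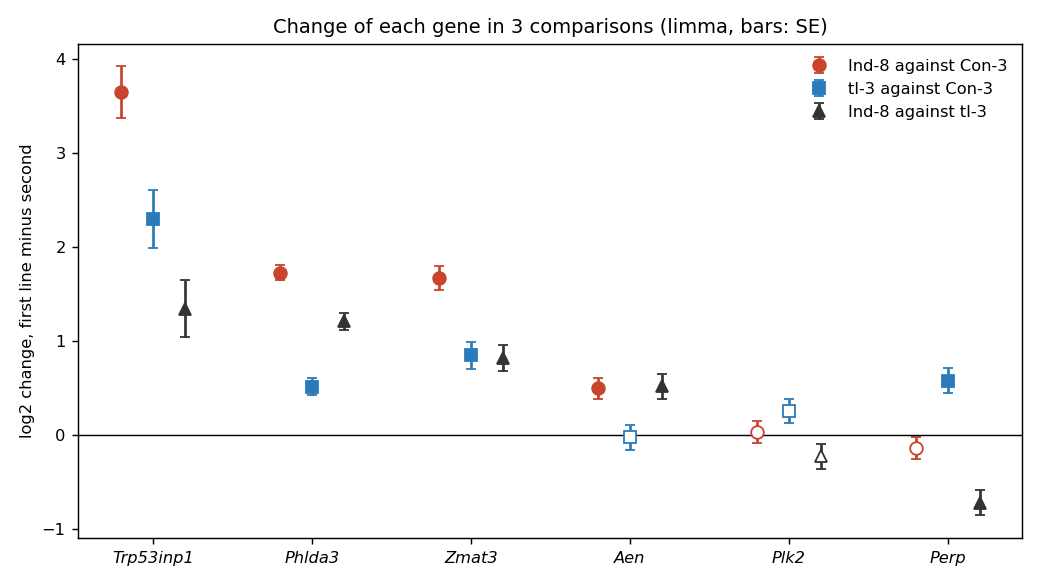
Log2 change of each gene in 3 comparisons, with its SE; circles are Ind-8 minus Con-3, squares tI-3 minus Con-3 and triangles Ind-8 minus tI-3, and open symbols were not called by limma. Trp53inp1, Phlda3 and Zmat3 have all 3 symbols filled and above 0, Aen has filled symbols for Ind-8 against each other line, and Perp has its triangle below 0 at -0.72.

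The graded order, with ASYM above p53SYM above SYM and every step called, held for 3 of 6 effector genes, Trp53inp1, Phlda3 and Zmat3. With a block for high or low hybridization controls the step from p53SYM to ASYM kept its call for Phlda3 but not for Trp53inp1 or Zmat3, and without tI-3 replicate 2 that of Trp53inp1 was also lost (adjusted p = 0.082). The order held for 116 of 22523 probe sets, 0.515%. The 6 genes and the lists were chosen with earlier results of these data known. On these arrays the study had already picked Trp53inp1, Cdkn1a, Eda2r, Sulf2 and Cryab as higher in ASYM than in both other states. The counts are therefore a description and no test. In the lists of p53 targets the order held for 9 of 36 genes, among them Cdkn1a, the p21 gene, and Bax. Of these 9, Gtse1 (0.45), Fas (0.71), Psrc1 (0.72) and Cryab (0.96) lost the step from p53SYM to ASYM without tI-3 replicate 2. The 3 comparisons share samples, so their values are given side by side and are not independent.

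The rank product test named in the study's methods was applied to the same values. At a percentage of false positives (pfp) under 0.05 it called 3 of 6 genes in ASYM against SYM, all higher, beside 2.23% of all probe sets called higher. These were Trp53inp1 (pfp 0.0, no permuted value being as extreme), Phlda3 (0.00052) and Zmat3 (0.0013), while Aen had a pfp of 0.26. In ASYM against p53SYM it called Trp53inp1 (0.024) and Phlda3 (0.038), 2 of 6 beside 1.59% called higher, and Zmat3 had a pfp of 0.16. With any array of that comparison left out it called at most 1 gene.

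The levels of the hybridization controls were set beside the changes by comparing arrays of like level. Among arrays of low level, 3 of Ind-8 and 2 of Con-3, the difference was 3.54 for Trp53inp1, 1.73 for Phlda3, 1.57 for Zmat3, 0.59 for Aen, 0.10 for Plk2 and -0.21 for Perp. Among arrays of high level, 2 of tI-3 and 1 of Con-3, it was 2.54 for Trp53inp1, 0.51 for Phlda3, 1.07 for Zmat3, 0.73 for Perp, 0.12 for Plk2 and -0.20 for Aen. The 1 Con-3 array of high level is replicate 3, which stood apart in other ways too, so these differences are a description only. Without Con-3 replicate 3 limma called 4, 5 and 4 of the 6 genes in the 3 comparisons, as with it, beside 3650, 7261 and 5345 of 22523 probe sets. For ASYM against p53SYM no level holds both lines. With the level as a block in limma, Phlda3 kept its call in that comparison and the other 4 genes lost theirs, the changes of Trp53inp1 and Zmat3 being smaller, at 1.00 (adjusted p = 0.34) and 0.50 (adjusted p = 0.22), and those of Aen and Perp larger, at 0.78 (adjusted p = 0.069) and -0.94 (adjusted p = 0.053). Over all probe sets this block left 708 of 22523 called there, against 7009 without it.

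Other p53 targets, from lists chosen with earlier results of these data known, give the setting for these genes. Of 36 genes found from lists of arrest, apoptosis, repair and metabolic, and other established targets, 21 were higher in ASYM than in SYM, 1 was lower (Pmaip1, -1.54 ± 0.245) and 14 were not called, with a median of 0.77. Against p53SYM, 22 were higher in ASYM and 1 (Rap2b, -0.31 ± 0.101, a call lost without any of 6 arrays, all but Con-3 replicates 1 and 3, with an adjusted p of up to 0.19) was lower, with a median of 0.75, and in p53SYM against SYM 12 were higher and 5 lower, with a median of 0.25. Over all probe sets, 10.9%, 15.6% and 10.2% were called higher in these comparisons, and 3411 of 22523 were lower in p53SYM than in SYM. Trp53inp1 had a change close to those of Cdkn1a (3.81 ± 0.106), Ephx1 (3.85 ± 0.197), Sulf2 (3.89 ± 0.17) and Eda2r (3.73 ± 0.149). Their Con-3 means were 5.86, 7.80, 5.44 and 4.02, against 4.37 for Trp53inp1. In Con-3, Trp53inp1 and Eda2r lay near or under the 25th percentile of means, 4.30, so the sizes of their changes are uncertain. The order among these genes is uncertain too. Abhd4 (1.47), Polk (1.33) and Bbc3 (1.11) also rose. Phlda3 and Zmat3 lay between Fas (1.53 ± 0.188), a death receptor, and Mdm2 (2.00 ± 0.13), the p53 ubiquitin ligase. Aen lay near Xpc (0.46 ± 0.0953), a DNA damage sensor, and Plk2 lay among uncalled targets such as Epha2 (0.06 ± 0.115) and Tigar (-0.02 ± 0.0918). By list, the counts higher, lower and not called in ASYM against SYM were 3, 0 and 2 of 5 for arrest, 6, 1 and 3 of 10 for apoptosis, 5, 0 and 6 of 11 for repair and metabolism, 7, 0 and 3 of 10 for the other targets, and 4, 0 and 5 of 9 for p53 and its regulators.

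Shares were also computed for the 17 other p53 targets and regulators called higher with a log2 change of at least 1. They ran from -32.4% for Dcxr to 62.2% for Ephx1, with a median of 36.4%, against 40.3% for the median of the 4 effector genes, which include Aen with its smaller change; the middle share of the other 3 is the 50.8% of Zmat3. On the log2 scale Trp53inp1 kept a share above all 17, though under its relative Trp53inp2 (64.6%) and Gabarap (71.3%), which are not among them, next to Ephx1, Psrc1 (58.4%), Cryab (58.2%) and Ccng1 (57.2%), and its interval overlapped theirs. On linear values Psrc1 (41.1%), Cryab (34.0%), Fas (33.8%), Ccng1 (32.8%) and Bax (32.3%) were above it, and among targets with a smaller rise Ddb2 had a log2 share of 123%. Phlda3 came beside Btg2 (29.2%) and Mdm2 (36.0%). Aen was between Tnfrsf10b (-3.34%), a death receptor, and Dcxr, genes whose p53SYM means were under their SYM means, and Ddit4 (2.95%) was close to them. Zmat3 lay between Ccng1 and Fas (48.2%).

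**Figure D5:**
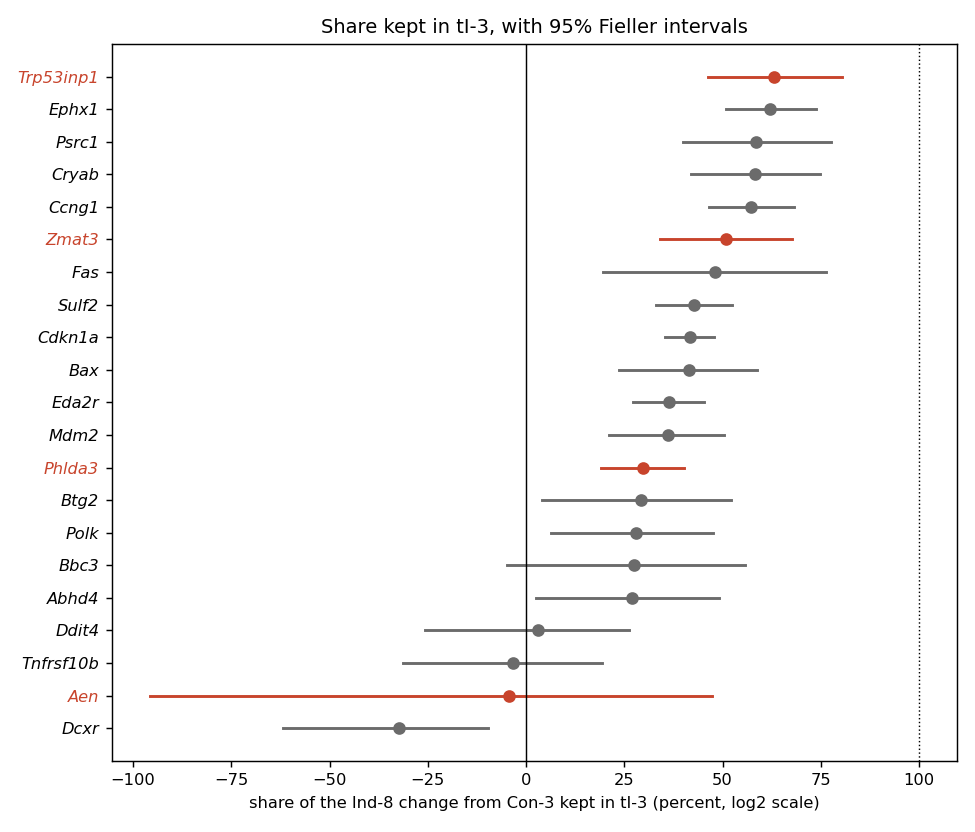
Share of the Ind-8 change from Con-3 that was kept in tI-3, in percent on the log2 scale, for the effector genes (red) and 17 other p53 targets and regulators (grey); lines are 95% Fieller intervals, the solid line marks 0 and the dotted line 100%. Trp53inp1 is at the top with 63.1%, Phlda3 is at 29.8%, and the Aen interval spans 0.

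The genes with the most similar pattern to each effector gene over the 8 arrays were found among 971 probe sets of named genes whose line means span at least 1 log2 unit, as a description by Pearson's r. Trp53inp1 was closest to Marcks (r = 0.998), a substrate of protein kinase C at the membrane, BC028528 (0.992) and Ccng1 (0.991). Phlda3 was closest to Rftn1 (0.994), a lipid raft protein, Cdkn1a (0.991) and Hoatz (0.991), and Zmat3 to Fndc3c1 (0.997), Cd109 (0.990) and Commd3 (0.987). Aen was closest to Kctd12 (0.953), Tcp11l2 (0.943) and Glipr1 (0.942), which, like Aen, were highest in Ind-8. Perp was closest to Xlr (0.961), Cyp2c29 (0.943) and Ric3 (0.937), genes highest in tI-3. For Plk2 the closest were Crabp2 (0.889), Ccl7 (0.838) and Il6st (0.832), with lower r than for the other genes. The line means of Plk2 ran only from 10.75 to 11.01, so genes as flat as Plk2 were not among the candidates. This r is therefore not comparable with the others. The line means of Aen and Perp also span less than 1 log2 unit, and the filter fixed that their nearest genes differ between lines.

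The lines were checked against markers of the labelled cell type. Vim, Fn1, Col1a1 and Col1a2 were bright in all lines, and of 10 fibroblast markers 1, Thy1, had a mean under the 25th percentile. The log2 of the summed fibroblast markers was 15.68, 15.80 and 15.79 in Ind-8, 15.40, 15.50 and 15.52 in Con-3, and 15.47 and 15.32 in tI-3. Of the 10, 6 were higher and 1 was lower in ASYM than in p53SYM, led by Col3a1 (2.42 ± 0.368, adjusted p = 0.0013). Over all probe sets, 15.6% were higher and 15.5% lower in that comparison. In ASYM against SYM 2 were higher and 1 was lower, and in p53SYM against SYM 3 were higher and 4 lower. Of the epithelial markers, the cells in which Perp is best known, 4 of 8 were under the 25th percentile, Epcam and Cdh1 among them. Krt19 was the most abundant of the 8 and the only one called in ASYM against SYM (0.82 ± 0.164, adjusted p = 0.0056) and in ASYM against p53SYM (1.04 ± 0.184, adjusted p = 0.0029), higher in ASYM in both. Their log2 sum was 10.28, 10.61 and 10.62 in Ind-8, 9.45, 10.02 and 9.90 in Con-3, and 9.65 and 9.66 in tI-3, and rests mostly on Krt19. In p53SYM against SYM limma called 0 of the 8, 3 had an unadjusted p under 0.05, and their median was 0.24. The part of Krt19 in the ASYM results was not tested. Haematopoietic markers (3 of 5 under the 25th percentile, Ptprc and Itgam among them), endothelial markers (4 of 5, Pecam1 and Cdh5 among them), skeletal muscle markers (0 of 4, with Myod1 at 4.10 to 4.61 over the arrays) and neural markers (2 of 5) had log2 sums of 6.74 to 7.33 on the Ind-8 and Con-3 arrays and 7.11 to 7.41 on the tI-3 arrays, where each of the 4 sums was highest. In ASYM against p53SYM 3 haematopoietic, 1 endothelial, 1 muscle and 1 neural marker were called lower and 1 neural marker higher, and in ASYM against SYM 1 endothelial marker was called lower. In p53SYM against SYM 1 haematopoietic, 1 endothelial and 1 muscle marker were called higher and 1 neural marker lower, and their part in the Perp values was not tested. The marker counts stand beside 21.9% of all probe sets called in ASYM against SYM, 31.1% in ASYM against p53SYM and 25.4% in p53SYM against SYM.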

How the data were processed

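Total RNA of 8 cultures was hybridized to Affymetrix mouse arrays, 1 culture per array, 3 of Ind-8, 3 of Con-3 and 2 of tI-3, as grouped by the sample labels; the study's methods describe the preparations as independent. The authors deposited log2 values, processed with RMA on transcript-based RefSeq probe sets, and no further normalization was applied. Of 22587 probe sets, 64 were controls and not used, and 18294 of the other 22523 (81.2%) were matched to 15653 gene symbols through RefSeq (GRCm38.p6). Arrays have no sequencing depth; their number and the level of a probe set over the dim end limit the precision.

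Means of the 3 lines were fitted with limma 3.58.1 (R 4.3.3, prior at its default), with calls made at a Benjamini-Hochberg adjusted p under 0.05. The rank product test was re-implemented with 100 permutations and a pfp under 0.05. Shares carry 95% Fieller intervals from the limma variances. Both tests were tested on simulated data. Python 3.11.15 with numpy 2.4.6, scipy 1.17.1, pandas 2.3.3 and matplotlib 3.10.9 was used for the rest.

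The members and lists were chosen with earlier results of these data known. Named genes were the 6 members, label check genes, genes of the p53 target and family lists called in ASYM against SYM with a log2 change of at least 1, direct family relatives, and the 3 nearest genes by pattern per member. Where a gene had several probe sets, the brightest stood for it. Other genes, such as Hipk2, Akt1, Gabarapl1, Map1lc3b, Zfp36, Zfp36l1, Eri1, Xpc, Epha2, Tigar, Rap2b, Pkp2, Pdpk1, Ddb2, Bax, Fas, Tnfrsf10b and the markers, were picked from the lists after their values were seen. Most other counted genes are not named, and 1 of them is not reported here. The main fit did not pair cultures by replicate number, and whether the numbers mark batches is not settled. Deviations from the line mean correlated at r = 0.27, 0.03 and 0.38 for Ind-8 and Con-3 arrays of the same number. Arrays of these lines with different numbers gave -0.41 to 0.12. For tI-3, the same number gave 0.01 and -0.23 with Ind-8, and 0.20 and 0.04 with Con-3.

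Alternatives were 2 lines per fit, the replicate number or the hybridization control level as a block, a trend in the prior, probe sets above the 25th percentile, distinct value profiles, other normalizations, control probe sets kept, a stricter pfp, linear shares, dim values raised to the 25th percentile, and each array left out. Their use on the p53 target lists and single shares, and the comparison within control levels, were chosen after seeing the data.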

Additional observations from a re-analysis of the deposited data

Results flagged for a closer look

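A difference between lines under the same contrast was found for 5 of the 6 effector genes, beside 31.1% of all probe sets called, in that the change from SYM differed between ASYM and p53SYM cells. Since both changes use the same Con-3 arrays, this was tested directly as ASYM against p53SYM in limma. Trp53inp1 changed by 1.35 more in ASYM (adjusted p = 0.0089), Phlda3 by 1.21 (adjusted p = 2.4e-05), Zmat3 by 0.82 (adjusted p = 0.0024) and Aen by 0.52 (adjusted p = 0.014). Perp went the other way, with -0.72 (adjusted p = 0.004), its values lying near the dim end of the arrays. With the hybridization control level as a block, Phlda3 kept its call (1.22) and the others lost theirs. Their changes were then 1.00 for Trp53inp1, 0.50 for Zmat3, 0.78 for Aen and -0.94 for Perp. For Trp53inp1, Phlda3, Zmat3 and Aen every Ind-8 array was above every tI-3 array, and for Perp every one was below; 60.3% of all probe sets did not overlap between these lines.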

How the results depend on the processing

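Of 303 values of the 6 genes under alternative settings, 286 kept direction and side of the threshold, 10 lost their call and 7 had the other sign, all 7 of changes that were not called. Many of these values could hardly move. Leaving out a tI-3 array does not alter a change in ASYM against SYM, and keeping controls or distinct profiles alters no change. In ASYM against SYM the hybridization control block repeats the fit without Con-3 replicate 3. The tally therefore does not count separate checks. In ASYM against p53SYM, the count of 5 called genes was 1 with the hybridization control level as a block and 2 by the rank product test. It stayed at 5 without any 1 of the Ind-8 or Con-3 arrays, beside 5120 to 7261 of 22523 probe sets. Without either tI-3 array it was lower, as was the count over all probe sets, which was lowest without tI-3 replicate 2. The block left 708 of 22523 probe sets called there, against 7009 without it, and draws on Con-3 replicate 3 alone to separate level from line. The p53 target count of 22 became 10 and that of 12 in p53SYM against SYM became 7 under this block. The 2 rank product calls became 0 at a pfp under 0.01, 0 to 1 with an array left out, and 5 by limma. The median share of 40.3% was 48.7% with the block, 47.0% after quantile normalization and 25.1% on linear values. The Aen change in p53SYM against SYM (-0.02) was 0.0075 with the replicate number as a block, 0.10 after quantile normalization, and ran from -0.14 to 0.066 with an array left out. The Plk2 change in ASYM against SYM ran from -0.086 to 0.11. The cause was not tested, beyond fewer arrays. With 1 tI-3 array left, that array is assumed to vary like the other lines. With 2 or 3 arrays per line and 1 clone per state, clone and state cannot be told apart, and Perp lies too near the dim end for its size to be read closely.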
